A study of Mus musculus with 6 samples.

Results

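Klf4, a transcription factor of barrier epithelia, was followed together with Sprr2k, Sprr1a and Cdsn, 3 genes of the cornified layer of the skin, in a mouse Sertoli cell line. They are 4 of the 1989 named genes tested, and 7 of the 17740 probes tested. All probes deposited under these symbols in the authors' table of called probes were taken, and the brightest over the 6 arrays stands for its gene. TM4 cells, a line derived from mouse Sertoli cells (the somatic cells that nurse germ cells in the testis), had been transfected either with 4 pooled siRNAs (short RNAs that direct the breakdown of a matching transcript) against Gata4 (Gata4 siRNA, 3 samples) or with 1 non-targeting siRNA (NT siRNA, 3 samples). Both groups received siRNA at 0.1 µM with the same lipid reagent, and the labels give passage 12 while the protocol gives passage 13. The cells are a single immortalized line with no genetic deletion, and siRNA acts on the transcript and leaves the gene intact. The level of Gata4 is not analysed here, since none of the named probes is assigned to it.

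Each sample was read on its own array of the Illumina MouseWG-6 version 2.0 BeadChip type. Values below are deposited intensities, on a linear scale with background already subtracted. An intensity above 17.1, the noise floor derived from the values below 0, counts as measured. Differences are Gata4 siRNA minus NT siRNA on a log2 scale (corrected intensity plus 16), which understates the change of dim probes. Between 17705 and 17737 of 45269 probes lay above the floor on each array. Precision is limited by having 3 arrays in each group, and nothing in the labels says that the samples were separate cultures, so any spread or p-value may be technical. In whole-culture RNA, fewer cells making a transcript and less transcript per cell cannot be told apart.

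The 4 genes were picked because the same 6 arrays had shown them lower with Gata4 siRNA, so their differences are given as a description, without a test. Their probes come from the authors' table of called probes, so each probe had itself been selected for a change. Agreement between probes of a gene is therefore no independent support, and any uncalled probe of these genes is not seen. Of 3 named Sertoli markers in a list of 29, 1 (Sox9) was higher and 2 (Inhbb and Tjp1) were lower (limma, adjusted p under 0.05), where 25.9% of all named genes were higher and 29.5% lower. None of these 3 calls was stable: Sox9 lost its call without any 1 array other than NT siRNA array 3, and Inhbb and Tjp1 without any 1 of the 6 arrays (adjusted p = 0.0505 to 0.137). The other markers carry no name here, so the Sertoli identity of the line was not checked further. No gene of the keratinocyte and epithelial marker list (32 genes) carries a name here, which leaves its level not analysed.

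As background, Klf4 is a zinc finger protein of the Krüppel-like family that binds GC-rich and CACCC-type DNA. In mice it is needed for the permeability barrier of the skin, it is expressed in Sertoli cells, and it is a component of the classical reprogramming cocktail. Sprr2k and Sprr1a encode small proline-rich proteins, which transglutaminases cross-link into the cornified envelope, the tough shell under the membrane of terminally differentiated keratinocytes. Sprr1a is also known as a gene that injured neurons and stressed heart muscle switch on. Cdsn encodes corneodesmosin, a secreted glycoprotein that holds cornified cells together at modified desmosomes. Its protein sits in the space between cells.

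Sprr2k (GRCm38.p6, chromosome 3, 92432582 to 92433927) and Sprr1a (chromosome 3, 92483954 to 92485881) are 50 kilobases apart in the epidermal gene cluster, with 2 genes, Sprr1b and Sprr3, between them. Klf4 lies on chromosome 4 (55527137 to 55532475) and Cdsn on chromosome 17 (35543101 to 35557180). Promoter windows of 300 bases (250 before the annotated start and 50 from it on) were available from RefSeq, build GRCm38.p6, for all 4 genes, with 2 windows for Cdsn. The Sprr2k and Sprr1a windows are shown first because they share letters of the AP-1 type, TGANTCA, printed in capitals. The Klf4 window follows for contrast in base composition. The Sprr2k window is chr3:92432332-92432631 on the plus strand, the Sprr1a window chr3:92485832-92486131 on the minus strand and the Klf4 window chr4:55532426-55532725 on the minus strand.
Sprr2k: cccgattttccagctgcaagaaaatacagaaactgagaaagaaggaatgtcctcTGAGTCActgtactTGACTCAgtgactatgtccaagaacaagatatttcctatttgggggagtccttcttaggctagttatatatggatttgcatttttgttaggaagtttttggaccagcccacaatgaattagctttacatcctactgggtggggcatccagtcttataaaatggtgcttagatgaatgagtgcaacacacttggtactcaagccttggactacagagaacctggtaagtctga
Sprr1a: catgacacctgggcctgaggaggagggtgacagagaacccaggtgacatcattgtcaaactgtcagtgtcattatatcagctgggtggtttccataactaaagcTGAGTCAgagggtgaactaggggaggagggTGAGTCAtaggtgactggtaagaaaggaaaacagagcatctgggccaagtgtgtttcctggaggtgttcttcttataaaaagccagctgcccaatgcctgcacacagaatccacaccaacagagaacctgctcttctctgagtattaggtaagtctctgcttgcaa
Klf4: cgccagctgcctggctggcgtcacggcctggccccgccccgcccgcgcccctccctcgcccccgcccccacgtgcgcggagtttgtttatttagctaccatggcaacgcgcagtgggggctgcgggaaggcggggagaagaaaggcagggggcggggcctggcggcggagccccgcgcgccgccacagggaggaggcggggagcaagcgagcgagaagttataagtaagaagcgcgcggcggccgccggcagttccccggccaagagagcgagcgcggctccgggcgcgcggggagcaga

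TGANTCA, searched on both strands, occurs 2 times in the Sprr2k window, starting 196 and 182 bases before the start site. It also occurs 2 times in the Sprr1a window, 146 and 116 bases before the start. It is in 7.81% of all 32851 promoter windows, and 0.46% of windows hold at least 2 matches. Of 14 windows of Sprr genes 9 hold a match, and Sprr2k and Sprr1a are the 2 with at least 2 matches. The TATAAA letters, read on the strand of the gene, stand 29 bases before the start of Sprr2k and 43 before that of Sprr1a, against a share of 8.32% over all windows. These letters are frequent in the family, in 10 of the 14 Sprr windows. The CACCC letters (both strands) occur 4 times in Sprr1a, where 1 of the matches overlaps a TGANTCA match, and 1 time in Sprr2k, while 57.5% of all windows hold them. The Klf4 window had a GC content of 74.3%, higher than in 95.6% of windows, against 48.7% for Sprr1a and 41.7% for Sprr2k. Neither the Klf4 window nor either Cdsn window holds TGANTCA or TATAAA, and CACCC occurs 1 time, in the Cdsn window farther along the gene. None of the 5 windows holds GATAA on either strand, letters of the GATA type that are in 25.4% of all windows. These matches are letters in a short window and not measured binding.

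**Figure D1:**
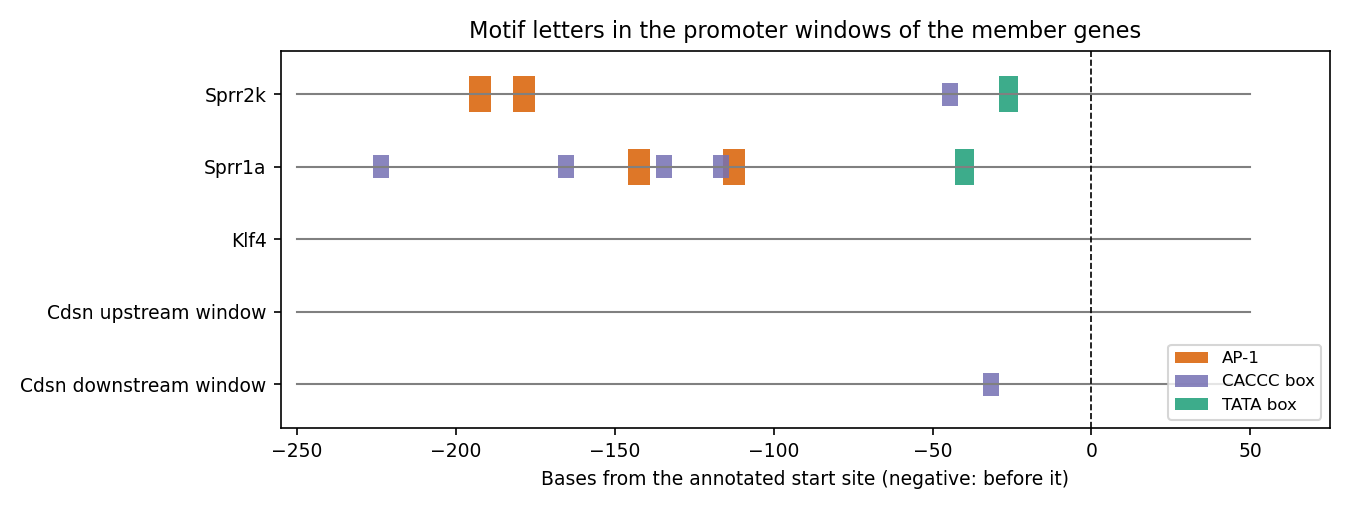
Positions of the AP-1, CACCC and TATA letters in the 300-base promoter windows of the 4 genes, by distance in bases from the annotated start site (dashed line). Sprr2k and Sprr1a each carry 2 AP-1 matches and 1 TATA match, and the Klf4 line is empty.

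Klf4, read by its brightest probe, had intensities of 21.6, 43.4 and 49.7 on Gata4 siRNA arrays 1 to 3, against 176.9, 112.9 and 170.7 on NT siRNA arrays 1 to 3. All 6 values lay above the noise floor, and the highest Gata4 siRNA array was below the lowest NT siRNA array by a factor of 2.27. The mean was 38.2 ± 14.7 with Gata4 siRNA and 153.5 ± 35.3 with NT siRNA (SD, n = 3 each), a ratio of 0.249 ± 0.065 (SE). The log2 difference was -1.66 ± 0.24 (SE). The second Klf4 probe was dimmer, with 19.5, 17.5 and 5.4 in Gata4 siRNA cells against 48.2, 37.9 and 84.8 in NT siRNA cells. It was above the floor on 2 of 3 Gata4 siRNA arrays, and its difference was -1.15 ± 0.24. Both probes thus separated the groups without overlap, but they did not rank the arrays alike: Gata4 siRNA array 1 was lowest on the brighter probe and highest on the dimmer one.

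Sprr2k was close to the noise in Gata4 siRNA cells. Its brightest probe had 5.6, 7.2 and 48.1 on Gata4 siRNA arrays 1 to 3 and 359.6, 308.7 and 257.4 on the NT siRNA arrays. Only array 3 of the Gata4 siRNA group rose above the floor, so the difference is a bound: Sprr2k was at least 7.71-fold lower, taking for each dim array the higher of the floor and its own value. The fitted log2 difference, which like the bound depends on the offset, was -3.19 ± 0.33. The second probe had -4.4, 25.7 and 12.6 in Gata4 siRNA cells against 121.6, 91.4 and 111 in NT siRNA cells. Again 1 of 3 Gata4 siRNA arrays was above the floor, and the group mean was at least 3.41-fold lower on the same log2 scale. The array that exceeded the floor was array 3 on one probe and array 2 on the other. Sprr2 genes resemble each other closely, and probe sequences were not used here, so signal from a related Sprr2 transcript cannot be told apart from Sprr2k.

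Sprr1a, with a single named probe, was measured on every array. Its intensities were 120.1, 98.9 and 118.4 in Gata4 siRNA cells against 563.4, 370.1 and 326.9 in NT siRNA cells. The coefficient of variation was 10.5% over the Gata4 siRNA arrays and 30% over the NT siRNA arrays, of which array 1 was the highest. The means were 112.5 ± 11.8 and 420.1 ± 125.9 (SD, n = 3 each), a ratio of 0.268 ± 0.049 and a log2 difference of -1.73 ± 0.20. Of 17 Sprr genes in the gene table, all on chromosome 3, 2 carry a name here, Sprr2k and Sprr1a, and the levels of the other Sprr genes were not analysed here.

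Cdsn was lower with Gata4 siRNA on both of its named probes, each of which had been selected for a change. The brighter had 62.3, 73.6 and 103.9 in Gata4 siRNA cells against 317.6, 243 and 203 in NT siRNA cells. The means were 79.9 ± 21.5 and 254.5 ± 58.2 (SD, n = 3 each), with a ratio of 0.314 ± 0.064 and a log2 difference of -1.50 ± 0.21. The dimmer Cdsn probe had 26.6, 14.3 and 32.5 in Gata4 siRNA cells against 98.3, 68.8 and 74 in NT siRNA cells, a ratio of 0.304 ± 0.075. On the log2 scale it was at -1.25 ± 0.19, nearer to 0 than the brighter probe although the ratios were alike, as the added 16 weighs more on dim values. Its Gata4 siRNA value was above the floor on 2 of 3 arrays.

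**Figure D2:**
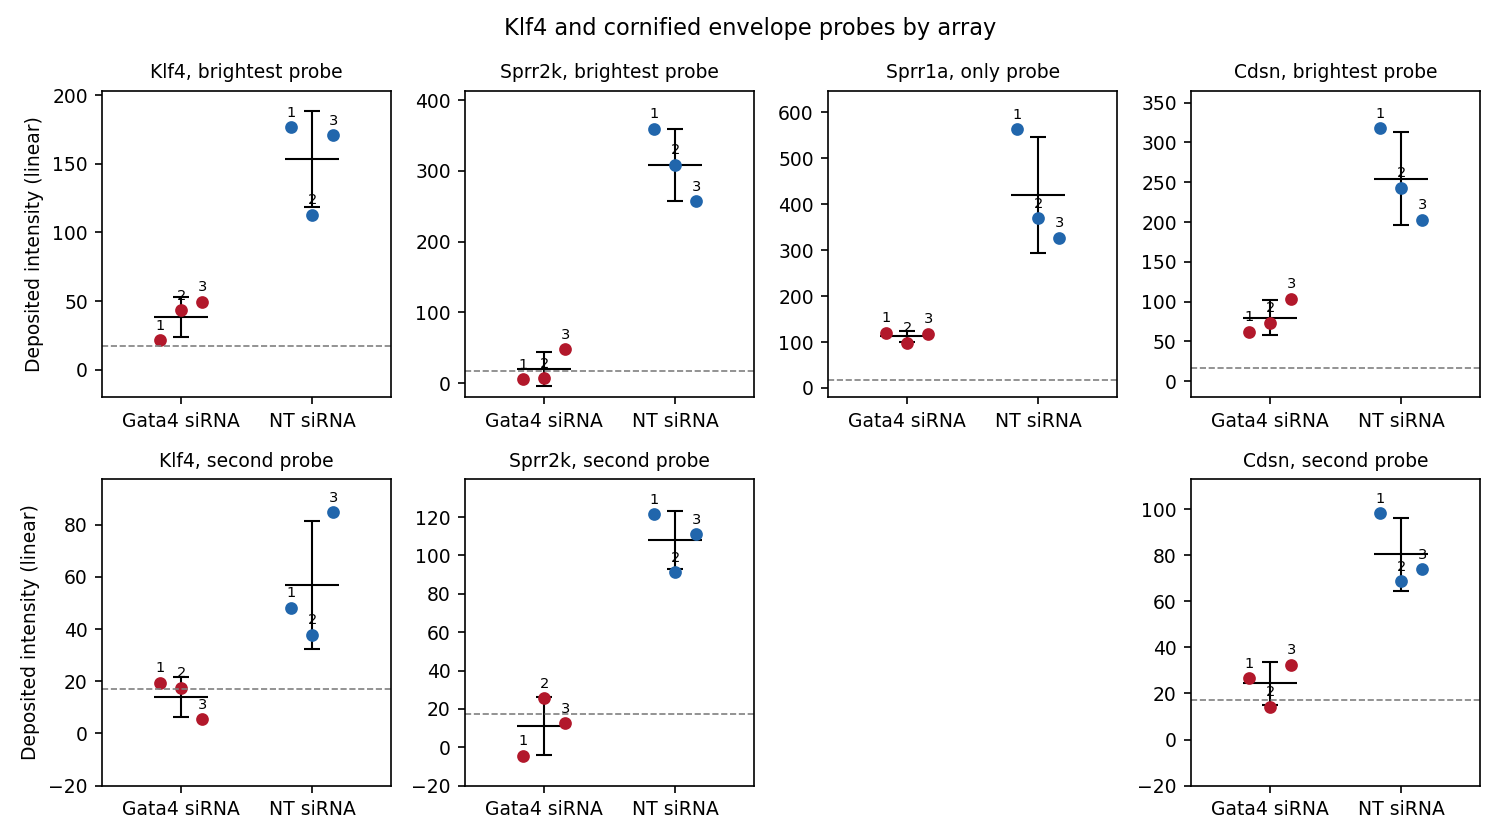
Deposited intensity (linear axis) of each probe of Klf4, Sprr2k, Sprr1a and Cdsn on the 3 Gata4 siRNA arrays (red) and the 3 NT siRNA arrays (blue), with replicate numbers, mean and SD; the dashed line is the noise floor of 17.1. In all 7 panels the groups are apart, and NT siRNA array 1 is the highest control array in 6 of them.

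All 7 probes were above the floor on every NT siRNA array, and 3 of the 7 on every Gata4 siRNA array. In each of the 7 probes the Gata4 siRNA arrays lay below the NT siRNA arrays without overlap. The same holds for 16.2% of all tested probes, and since the genes and their probes were picked for this contrast the count supports nothing further. The median difference over all tested probes was 0.01.

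**Figure D3:**
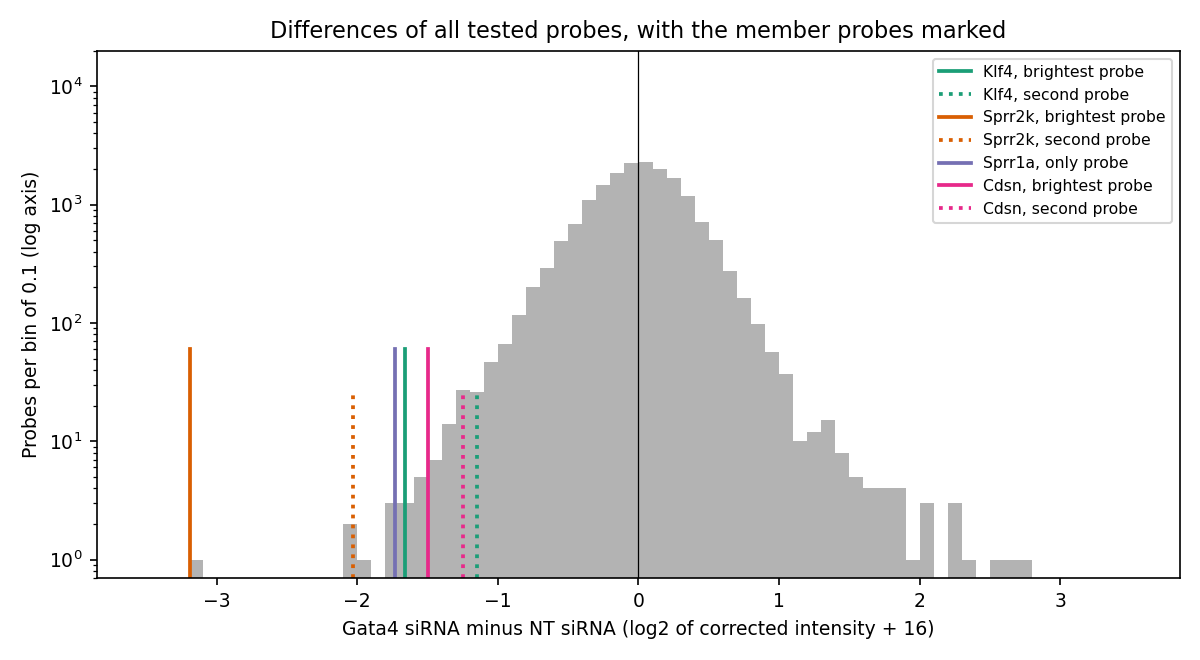
Histogram of the log2 differences (Gata4 siRNA minus NT siRNA) of the 17740 tested probes, on a log count axis, with lines at the probes of Klf4, Sprr2k, Sprr1a and Cdsn (solid for the brightest or only probe, dotted for the second). The brightest Sprr2k probe, at -3.19 with an offset of 16 and only bounded in Gata4 siRNA cells, stands at the low end, and Klf4, Sprr1a and Cdsn lie in the lower tail between -1.73 and -1.15.

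Within a group the 7 probes did not share 1 order of the arrays, and 4 of them had Gata4 siRNA values under the noise floor, which have no order. NT siRNA array 1 had the highest control value for 6 of the 7 probes, all but the dimmer Klf4 probe, and this array was the highest control for 31.1% of all tested probes. NT siRNA array 3, which stands apart from the other controls with an array weight of 0.379 against 0.786 to 1.97 for the other arrays, was highest for 1 of 7 (38.8% of all tested probes) and lowest for 3 of 7 (38.9%). NT siRNA array 2 was lowest for the other 4 (29.7% of all tested probes). Among the Gata4 siRNA arrays the highest value lay on array 1 for 2 probes, on array 2 for 1 and on array 3 for 4. Over all tested probes these shares were 38.9%, 29.9% and 31.1%. The lowest lay on array 1 for 4, on array 2 for 2 and on array 3 for 1, against 32.3%, 29.4% and 38.3%. These counts include the 4 probes with values under the floor, so they are not read further. Leaving out any 1 array moved the log2 difference between -1.85 and -1.42 for Klf4, between -3.61 and -2.96 for Sprr2k, between -1.89 and -1.51 for Sprr1a and between -1.67 and -1.34 for Cdsn. The least negative Sprr1a and Cdsn values came without NT siRNA array 1. The least negative Klf4 and Sprr2k values came without Gata4 siRNA array 1.

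How dim values were treated moved the sizes more than any single array did. With values floored at 1 the Sprr2k difference was -4.62, and with 130 added to each value it was -1.55. For Klf4 the same settings gave -2.06 and -0.75. The difference stayed below 0 for all 4 genes under each of these settings.

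**Figure D4:**
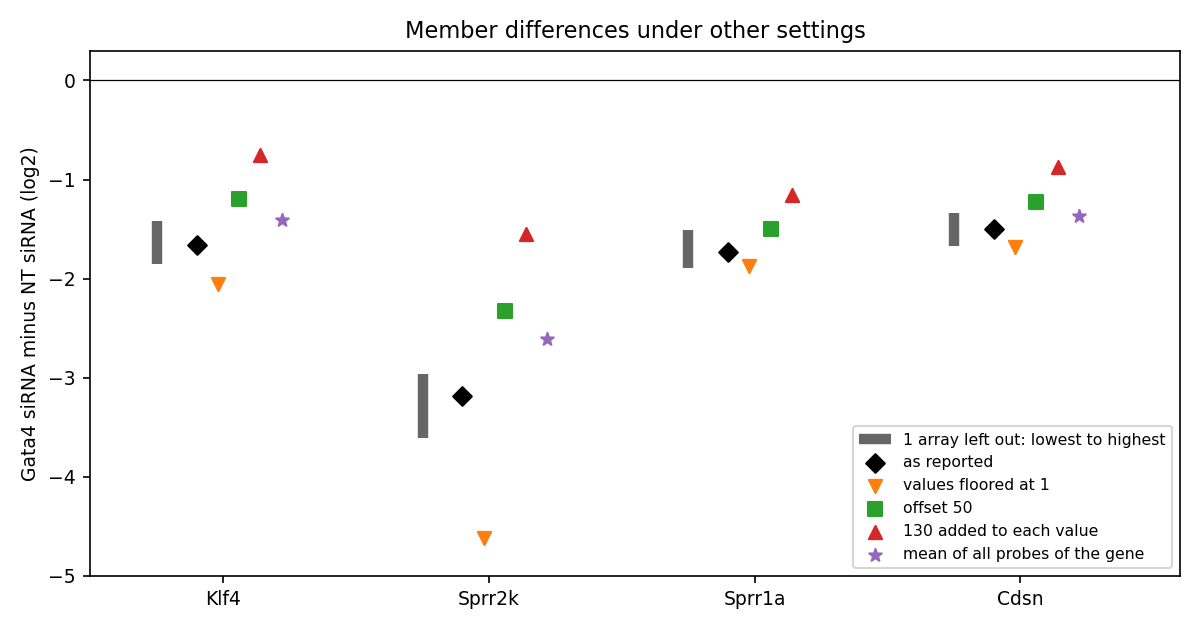
Log2 difference (Gata4 siRNA minus NT siRNA) of Klf4, Sprr2k, Sprr1a and Cdsn as reported (black diamonds), under 3 other treatments of dim values, as a mean of all probes, and as the range over the 6 fits that each leave out 1 array (grey bars). Sprr2k spans -4.62 to -1.55, the widest range of the 4, and every point lies below 0.

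The wider setting of these genes was read from lists of related genes: the cornified envelope, desmosomes with their shedding proteases, the KLF and SP family, regulators of keratinocyte differentiation, reported targets and partners of Klf4, and smooth muscle genes that Klf4 restrains in vascular muscle. Names come only from the authors' table of called probes, so a listed gene without a name is not analysed here, and the named ones had been selected for a change on these arrays. Over these lists 19 genes were named and tested, of which 7 rose (36.8%), 3 fell (15.8%) and 9 did not pass (limma, adjusted p under 0.05). Among all 1989 named genes 25.9% rose and 29.5% fell. The median difference was 0.47 over the 19 genes and 0.27 over all named genes.

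In the KLF and SP family, 2 of 26 listed genes were named. Klf2, a relative of Klf4 best known from endothelium and lymphocytes, had intensities of 82.7, 87.2 and 88.3 in Gata4 siRNA cells against 158.5, 144.6 and 231.6 in NT siRNA cells. It fell by 0.90 ± 0.17 (SE; limma adjusted p = 0.0205). That call was lost without Gata4 siRNA array 1 (adjusted p = 0.0802) and without array 2 (adjusted p = 0.0787), and over all alternatives the adjusted p ran from 0.0067 to 0.0802. Klf5, a relative that in gut epithelium often opposes Klf4, was at 0.40 ± 0.12 (limma adjusted p = 0.081), with 3422.7, 3336.6 and 3334.5 in Gata4 siRNA cells against 2822.6, 2560.9 and 2290.6 in NT siRNA cells. The Klf5 difference did not pass.

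Of the 64 other cornified envelope genes, 1 carried a name. Lce1f, a late envelope gene of the same chromosome 3 cluster as the Sprr genes, stood on the opposite side of 0 from them at 0.52 ± 0.15 and did not pass (limma adjusted p = 0.0685). It had 225.9, 282.6 and 292.1 in Gata4 siRNA cells against 208.1, 178.3 and 156.5 in NT siRNA cells. Of 30 desmosome and protease genes 2 were named: the plakophilin Pkp4, an armadillo protein of cell junctions, rose by 0.54 ± 0.12 (limma adjusted p = 0.034), a call lost without any 1 of the 6 arrays (adjusted p = 0.0526 to 0.13). Its relative Pkp2 was at -0.34 ± 0.11 (limma adjusted p = 0.0941).

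Among 36 regulators of keratinocyte differentiation 4 were named, of which 2 fell and 2 did not pass, where 29.5% of all named genes fell. So few genes say nothing about the list. Gata3, a zinc finger factor needed in mice for the skin barrier, fell by 1.36 ± 0.12 (limma adjusted p = 0.002), and its call held in all 14 alternatives. The retinoid receptor Rxra fell by 0.61 ± 0.12 (limma adjusted p = 0.0219). This call was lost without Gata4 siRNA array 1 or 2 or NT siRNA array 1 or 2 (adjusted p = 0.0704 to 0.0904). Fosl2, an AP-1 subunit, was at 0.37 ± 0.11 (limma adjusted p = 0.0741) and the Ets factor Elk3 at 0.68 ± 0.19 (limma adjusted p = 0.0664), and neither passed.

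Of 29 reported Klf4 targets and partners 6 were named, with 2 higher and 4 not passing, where 25.9% of all named genes rose. Cyclin E1, Ccne1, which drives entry into S phase, rose by 0.70 ± 0.16 (limma adjusted p = 0.0327). The T-box factor Tbx3 rose by 0.59 ± 0.12 (limma adjusted p = 0.0265). Both calls were lost without any 1 array other than NT siRNA array 3, with adjusted p from 0.0568 to 0.113. Cdkn1a, the cell cycle inhibitor p21 that Klf4 is known to activate, had 434.6, 592.7 and 780.9 in Gata4 siRNA cells against 1207.4, 889.6 and 991.2 in NT siRNA cells. Its difference of -0.78 ± 0.22 did not pass (limma adjusted p = 0.06). The rest that did not pass lay above 0, with Ccnd1 at 0.40 ± 0.13, Odc1 at 0.36 ± 0.13 and Ezh2 at 0.47 ± 0.13 (limma adjusted p = 0.0625 to 0.118). The 4 named smooth muscle genes of 18 listed, Acta2, Tagln, Actg2 and Mylk, all rose, by 0.53 to 0.93 (limma adjusted p = 0.0112 to 0.0321), where 25.9% of all named genes rose. Acta2 is given by the brightest of its 4 named probes. Whether lower Klf4 bears on any of these targets, partners or smooth muscle genes was not tested. With 1 array left out, Acta2 kept its call only without NT siRNA array 3 and Mylk only without Gata4 siRNA array 3. Actg2 lost its call without Gata4 siRNA array 1 or 2 or NT siRNA array 1, and Tagln without Gata4 siRNA array 2 (adjusted p = 0.0503 to 0.114 over the lost calls).

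**Figure D5:**
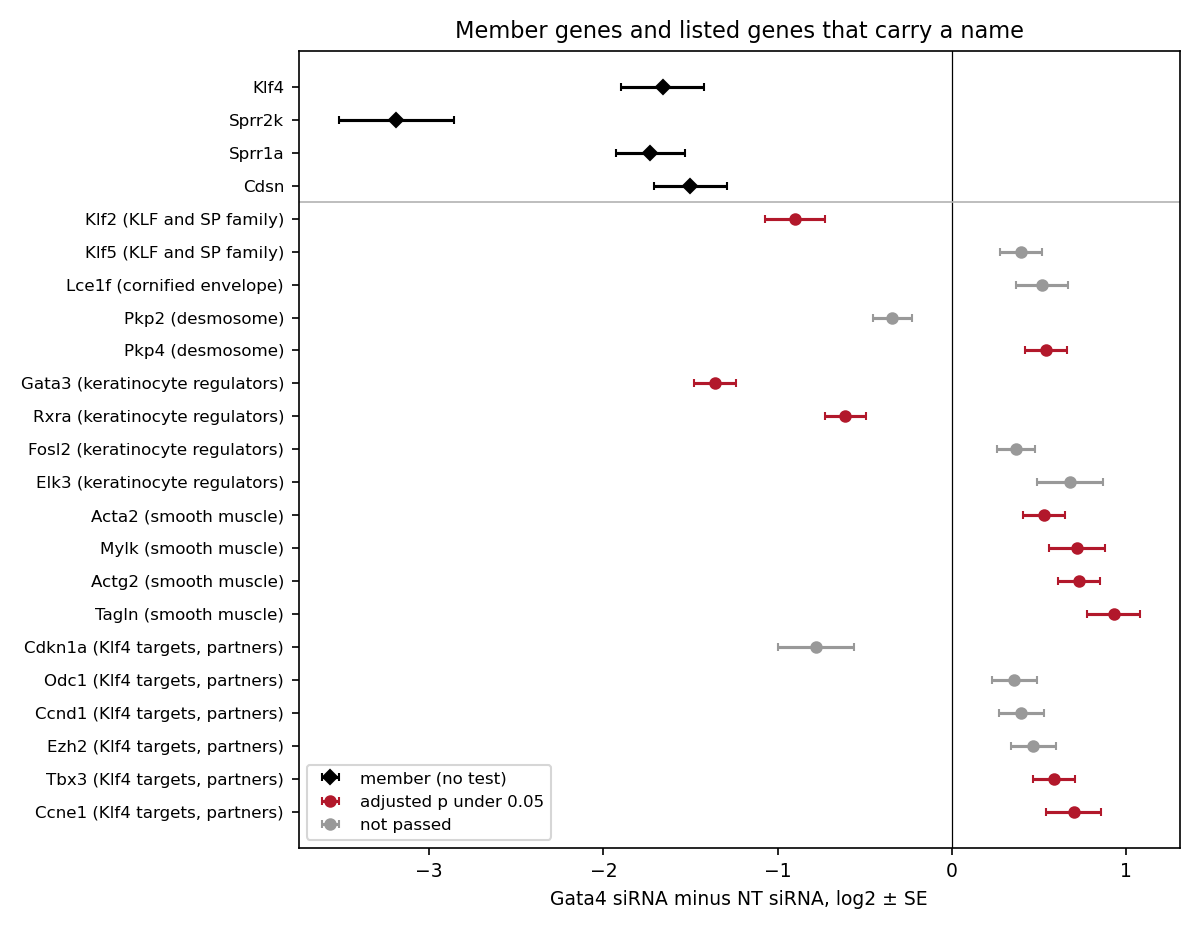
Log2 difference (Gata4 siRNA minus NT siRNA) with its SE for Klf4, Sprr2k, Sprr1a and Cdsn (black, described without a test) and for the 19 named genes of the related lists, red where the adjusted p was under 0.05. The 4 black points and Gata3 lie farthest below 0, and the 4 smooth muscle genes lie to the right of it.

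Genomic neighbours were mostly unnamed. Of the 20 genes flanking Klf4 (10 on either side) 0 were named, and around Sprr2k and Sprr1a the named neighbour was the other of the pair. Next to Cdsn, 1 of 20 was named: Tcf19, a factor linked to cell growth and 3 genes away, rose by 0.64 ± 0.11 (limma adjusted p = 0.0136), opposite in sign to Cdsn. The Tcf19 call was lost without Gata4 siRNA array 1 (adjusted p = 0.0509), Gata4 siRNA array 2 (adjusted p = 0.0701) or NT siRNA array 1 (adjusted p = 0.0512).

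Likeness of profile was measured as the mean absolute distance between log2 values over the 6 arrays, each gene centred on its own mean, among 1985 other named genes. It is small where size of change and array-to-array pattern both match, and it is a description only. Nearest to Klf4 were 2610528A11Rik at 0.13, Calml4 at 0.20 and Ndrg1, a stress-induced gene, at 0.20. Nearest to Sprr1a were the carbonic anhydrase Car9 at 0.13, the hormone gene Stc1 at 0.15 and Galnt18 at 0.17. Nearest to Cdsn were Spata24 at 0.09, Lrrc8e at 0.12 and Angptl6 at 0.14. Sprr2k had no close match, with Unc13a at 0.58, Zbtb8b at 0.64 and Angptl6 at 0.74. Among the 4 genes themselves, Sprr1a and Cdsn were at a distance of 0.20, Klf4 and Cdsn at 0.23 and Klf4 and Sprr1a at 0.36, while Sprr2k was 0.75 or more from each. Many other genes lay closer. Ranked against the 1985 from Cdsn, Sprr1a took place 23 and Klf4 place 46. From Klf4, Cdsn took place 8 and Sprr1a place 79, and from Sprr1a, Cdsn took place 7 and Klf4 place 71. The distance also holds the group difference for which the 4 genes were picked.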

How the data were processed

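Transcripts of 6 TM4 samples, 3 with Gata4 siRNA and 3 with NT siRNA by their titles, were measured on Illumina arrays. The intensity values deposited by the authors come from GenomeStudio, per the submitters' processing notes, whose settings are stated in none of the sources used here. With 37.1% of them below 0, these values were background-subtracted. The design text numbers the controls in a way that conflicts with 3 samples per group, so the titles were followed. Left out were 18 per-array columns whose names fit no sample label.

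Intensities were corrected with normexp (background mean 0, SD 9.401 from the values below 0), 16 was added and log2 taken. Probes above the floor of 17.1 (95th percentile of the negative values' sizes) on at least 3 arrays were compared in limma 3.58.1 (R 4.3.3; lmFit, then eBayes, two-sided), and p-values were adjusted by Benjamini-Hochberg over 17740 probes with a threshold of 0.05. The fit was tested on simulated data. A ratio is the authors' mean intensities divided, with its SE by error propagation. Of the authors' deposited table only probe identifiers, symbols and Entrez numbers (identifiers, not measurements) were read; symbols were updated through a RefSeq table (GRCm38.p6). Listed genes were represented by their brightest tested probe. The genes followed, the lists and the rules were chosen with earlier results of these data known. The rule for named genes takes all probes of the 4 genes, named genes of the lists, the 3 nearest profiles of each gene and named genes among 10 on either side. Alternatives changed the treatment of dim values, the probe filter, eBayes, the weighting of arrays and the probe rule, added a replicate block, or left out 1 array.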

Additional observations from a re-analysis of the deposited data

How the results depend on the processing

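The log2 differences of Klf4, Sprr2k, Sprr1a and Cdsn kept their sign under each alternative that could move them. The other probe filters, the trended robust variance and the replicate block cannot move a log2 difference and say nothing about its sign. Sprr2k has no value where probes had to be above the floor on all 6 arrays. Array weights gave -1.51, -3.37, -1.85 and -1.59. For these 4 genes array weights, the other probe filters and the trended robust variance were added after seeing the data. Klf4 and Cdsn have no stable order: Klf4 had the larger difference as reported and Cdsn with array weights, 130 added, an offset of 50 or without NT siRNA array 3. With 130 added to each value they were -0.75, -1.55, -1.16 and -0.87. Values floored at 1 gave -2.06 for Klf4 and -4.62 for Sprr2k, and an offset of 50 gave -1.20 and -2.33. The mean of both Sprr2k probes was -2.61. With 1 array left out the 4 ranges were -1.85 to -1.42, -3.61 to -2.96, -1.89 to -1.51 and -1.67 to -1.34. Over all probes 1558 changed, 722 higher and 836 lower. These counts were 2518 changed and 1265 higher with 130 added, 2384 and 1161 with a trended robust variance, and 734, 357 and 377 lower with values floored at 1. Array weights gave 3079 changed, 1496 higher and 1583 lower, and an offset of 50 gave 1108 higher. With 1 array left out 257 to 1602 changed, 128 to 776 rose and 129 to 826 fell, fewest without Gata4 siRNA array 2. Of the 19 listed genes 7 rose and 3 fell, against 14 and 5 with 130 added or a trended robust variance, 13 higher with an offset of 50, 5 lower with array weights, 2 higher with values floored at 1, and 0 to 5 higher and 1 to 4 lower with 1 array left out. Of the 10 called listed genes 1, Gata3, was called under every alternative, and values floored at 1 kept 5 of the 10 and the replicate block 4. The alternatives for Sox9, Inhbb and Tjp1 were also added after seeing the data. No pairing by replicate number was seen: same-numbered deviations correlated at -0.055, -0.0884 and -0.0113 over the tested probes. Differently numbered ones correlated at -0.134 to 0.215. With 3 arrays per group this cannot show that the samples were unpaired. The replicate block gave 736 changed probes, 351 higher and 385 lower, and 2 listed genes higher. It cannot move the 4 log2 differences, since both groups hold the same replicate numbers. Depth limits Sprr2k most, since 2 of its 3 Gata4 siRNA values lie under the noise floor on either probe.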
